A study of Mus musculus with 12 samples.

Results

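The genes of the kainate receptor and its auxiliary proteins were examined in hippocampi of mice haploinsufficient for *Nell-1*. The set holds 7 genes, the 5 subunit genes *Grik1*, *Grik2*, *Grik3*, *Grik4* and *Grik5* and the 2 auxiliary genes *Neto1* and *Neto2*, chosen by symbol and matched by Entrez ID to a table of 27179 genes. All 7 passed the filter on low counts, which left 17937 genes. RNA sequencing covered 12 mice aged 3 months. Each genotype, *Nell-1+/6R* and WT, had 6 mice, of which 3 were female and 3 male. The *Nell-1+/6R* mice carry 1 loss-of-function 6R allele and 1 WT allele of *Nell1* in every cell, and the WT mice carry no 6R allele. No mouse received an agent, as far as the labels say. The mice with both alleles mutated die at birth and were not part of these data. The labels do not say which mice share a litter, so a p-value measures the spread between these 12 mice only.

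Kainate receptors are glutamate-gated ion channels made of 4 subunits. GluK1, GluK2 and GluK3, the products of *Grik1* to *Grik3*, can form channels on their own, whereas the high-affinity subunits GluK4 and GluK5, the products of *Grik4* and *Grik5*, reach the surface as working channels only together with one of them. Neto1 and Neto2 are single-pass membrane proteins that bind the receptor and slow its kinetics. In the hippocampus the receptors are best known at the mossy fibre synapse, where dentate granule cells contact CA3 pyramidal cells, and in interneurons.

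All 5 subunit genes hold the codon CAG at the Q/R site of the pore loop, which in *Grik1* and *Grik2* RNA can be edited by ADAR enzymes so that it reads as arginine. The stretch around it is shown because it is the part of the pore in which these genes can be compared base for base, and because editing there changes the channel without changing a read count. The sequences are from GENCODE M21 on GRCm38, 5′ to 3′ on the coding strand, with the Q/R codon in capitals.
Grik1: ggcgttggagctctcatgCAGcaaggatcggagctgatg
Grik2: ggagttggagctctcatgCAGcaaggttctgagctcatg
Grik3: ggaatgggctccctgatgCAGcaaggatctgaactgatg
Grik4: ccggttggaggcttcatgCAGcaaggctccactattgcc
Grik5: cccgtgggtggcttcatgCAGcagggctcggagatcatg

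The Q/R codon is codon 636 of *Grik1*, in exon 13 of 18, at chr16:87940542-87940544 on the minus strand. It is codon 621 of *Grik2*, in exon 13 of 17, at chr10:49244329-49244331 on the minus strand. In *Grik3* it is codon 623, in exon 12 of 16, at chr4:125691207-125691209 on the plus strand. In *Grik4* it is codon 606, in exon 16 of 21, at chr9:42547623-42547625 on the minus strand, and in *Grik5* codon 605, in exon 15 of 20, at chr7:25022497-25022499 on the minus strand. In *Grik1*, *Grik2* and *Grik3* the printed stretch crosses a splice junction, whereas in *Grik4* and *Grik5* it lies in a single exon. Of its 39 bases, *Grik1* and *Grik2* share 35, each of them shares 30 with *Grik3*, and *Grik4* and *Grik5* share 27. *Grik3* and *Grik4* are the least alike, with 19 shared bases. A count per gene cannot tell edited from unedited reads, so the share of edited RNA was not analysed here.

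The genes lie on 7 chromosomes. In the RefSeq annotation of GRCm38.p6, *Grik1* spans chr16:87895901-88290863, *Grik2* chr10:49093680-49790161, *Grik3* chr4:125490259-125714173, *Grik4* chr9:42518182-42945000 and *Grik5* chr7:25009849-25075694. *Neto1* spans chr18:86394815-86506721 and *Neto2* chr8:85636718-85700952. In the basic annotation of GENCODE M21, the exons of all protein-coding transcripts of a gene together cover from 3763 bases in *Grik5* to 10374 bases in *Grik2*. No stretch of 50 bases, the read length assumed, is shared between any of the 7 genes. *Neto1* shares 2.05% of its stretches with another gene, AC113599.1, whose exons overlap 219 bases of it on the opposite strand. The strand setting of the counting is unknown here, and without it the reads of these bases cannot be told apart. In the other 6 genes at most 0.448% of the stretches occur elsewhere.

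The mice matched their labels. Levels are given in CPM, counts per 10 to the power of 6 counts of a library total scaled by TMM factors. *Nell1* itself lay at 36.5 ± 4.55 CPM in WT mice (SD, n = 6) and at 19.1 ± 1.77 CPM in those with the 6R allele (n = 6), a log2 fold change of -0.93 ± 0.08 (SE; edgeR, adjusted p = 0.0001498), and the genotypes did not overlap. *Xist*, expressed from the inactive X chromosome, was counted 2826 to 5930 times in a female and 6 to 13 times in a male, and the Y-linked *Eif2s3y* 0 to 1 and 348 to 501 times. The total count of a mouse lay between 10834905 and 16016317. Across all genes 7 differed between the genotypes at an adjusted p under 0.05 (edgeR). All 6 markers of hippocampal principal neurons were detected, the lowest of them at 58.5 CPM. Markers of tissue around the hippocampus varied among the mice, and 5 of 8 leptomeningeal genes (*Lum*, *Col1a1*, *Col1a2*, *Col3a1* and *Slc6a13*) had an unadjusted p under 0.05, all lower in *Nell-1+/6R* mice. Their summed level ranged from 109 to 355 CPM in WT mice and from 65.5 to 366 CPM in *Nell-1+/6R* mice, and their lowest member, *Col3a1*, averaged 3.39 CPM. Of 5 thalamic and habenular genes tested, *Slc17a6* and *Synpo2* had such a p, both lower, and *Slc17a6*, the vesicular glutamate transporter of thalamic neurons, also passed the adjusted threshold (log2 fold change -1.23 ± 0.15, edgeR, adjusted p = 0.0035), with *Gbx2* and *Pou4f1* below the filter, and summed levels of 58.5 to 96.9 CPM against 52.3 to 67.8 CPM. Choroid plexus genes had 0 of 7 at an unadjusted p under 0.05, a median log2 fold change of -0.97 and the widest range, with summed levels of 51.2 to 4597 CPM in WT and 41.5 to 5113 CPM in *Nell-1+/6R* mice. Their lowest member, *Otx2*, averaged 4.38 CPM. Of 4 neocortical genes, *Tbr1* and *Fezf2* had an unadjusted p under 0.05, 1 higher and 1 lower, and 0 of 7 striatal genes did. Summed neocortical levels were 135 to 164 CPM in WT and 130 to 163 CPM in *Nell-1+/6R* mice, with *Foxp2* lowest at 1.33 CPM. Summed striatal levels were 77.6 to 116 CPM and 83.9 to 118 CPM, with *Drd2* lowest at 1.7 CPM. The part of these tissues in the results below was not tested, and in bulk RNA fewer cells of a type and less RNA per cell cannot be told apart.

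Per length, *Grik5* RNA was by far the most abundant of the set. It averaged 126.6 ± 10.2 CPM per kb of exon (SD, n = 12 mice), with 110 in the lowest mouse and 143 in the highest. The next gene, *Grik4*, averaged 12.98 ± 1.9 CPM per kb, and *Grik5* exceeded it 9.75-fold, in 12 of 12 mice. *Grik3* followed at 9.56 ± 0.7 CPM per kb and *Neto1* at 8.06 ± 2.11. *Grik2*, the subunit best known from the mossy fibre synapse, averaged 4.53 ± 0.631 CPM per kb, *Neto2* 3.99 ± 0.843 and *Grik1*, which is found mainly in interneurons, 2.59 ± 0.377. Below *Grik5* each gene overlapped its neighbour in this order over the 12 mice. *Grik4* was nevertheless above *Grik3* in 11 of 12 mice, *Neto1* above *Grik2* in 12 and *Neto2* above *Grik1* in 11. *Grik2* was above *Neto2* in 9 mice and *Grik3* above *Neto1* in 10.

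**Figure D1:**
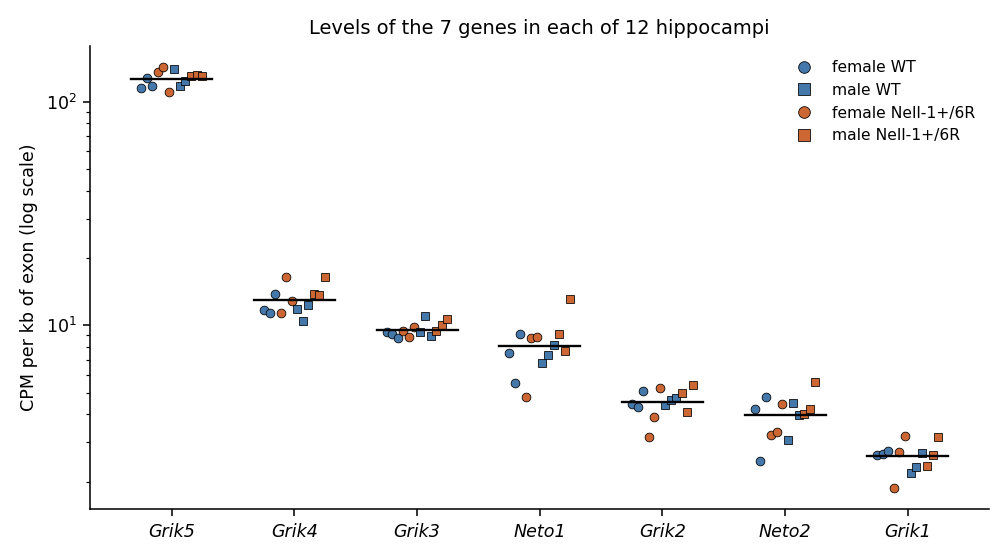
Levels of the 7 genes in CPM per kb of exon on a log axis, 1 point for each of 12 mice, coloured by genotype and shaped by sex, with a line at the mean. All *Grik5* points lie between 110 and 143 CPM per kb, and the highest point of any other gene is one of *Grik4* at 16.4.

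The order depends on the length used. Divided by coding bases alone, *Grik5* stayed first at 162 CPM per kb, *Neto1* moved to second at 42.1, and *Grik3* (31.1), *Grik4* (27.0), *Grik2* (15.9), *Neto2* (13.8) and *Grik1* (3.66) followed. The isoforms used in these mice are not known from a count per gene, and *Neto1* has only 1599 coding bases among 8352 exonic ones.

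Among the subunit genes, *Grik5* made up 80.97% ± 1.81 (SD, n = 12) of the summed level per exonic length. *Grik4* held 8.30% ± 0.996, *Grik3* 6.15% ± 0.657, *Grik2* 2.92% ± 0.508 and *Grik1* 1.67% ± 0.293. The 2 high-affinity subunits together made up 89.06% ± 0.972 in WT mice (n = 6) and 89.47% ± 1.57 in *Nell-1+/6R* mice (n = 6), and the shares of the genotypes overlapped. With coding length this share was 78.8% over the 12 mice, and *Grik5* held 67.6%, *Grik3* 13.01%, *Grik4* 11.2%, *Grik2* 6.67% and *Grik1* 1.53%, so the shares of *Grik3* and *Grik2* were over 2 times those per exonic length. The level of *Neto1* per length was 1.97 ± 0.235 times that of *Neto2* in WT mice and 2.08 ± 0.405 times in *Nell-1+/6R* mice. The ratio ran from 1.64 to 2.23 in WT mice and from 1.49 to 2.61 in *Nell-1+/6R* mice, so it spread more widely among the latter on both sides. With coding length it averaged 3.07 over the 12 mice, against 2.03 with exonic length.

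The main comparison was between the genotypes. None of the 7 genes passed an adjusted p of 0.05 in edgeR, limma-voom or DESeq2, against 0.039% of all genes tested in edgeR. At an unadjusted p under 0.05 the same tools each called 1 of 7, *Grik4*, which was higher in *Nell-1+/6R* mice. In edgeR 3.26% of all genes had such a p and 1.06% were higher with it. At the thresholds used in the study, an unadjusted p under 0.05 with a fold change above 1.5, the count was 0 of 7, against 1.46% of all genes. The median log2 fold change of the set was 0.07, that of all genes -0.0008. The fold change was above 0 in 6 of 7 genes and in 49.7% of all genes. The levels of the genotypes overlapped in each of the 7 genes, and they did not overlap in 0.151% of all genes.

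*Grik4* encodes the high-affinity subunit GluK4, which in the hippocampus is concentrated in CA3 and the dentate gyrus. In female WT mice it measured 69.9, 67.7 and 82.3 CPM, and in male WT mice 70.6, 62.5 and 73.1 CPM. In female *Nell-1+/6R* mice it measured 67.8, 97.9 and 76.4 CPM, and in male *Nell-1+/6R* mice 81.9, 81.0 and 97.5 CPM. The genotypes overlapped at both ends, with female WT replicate 3 above 4 of the *Nell-1+/6R* mice and female *Nell-1+/6R* replicate 1 below 4 of the WT mice, and 5 of 6 *Nell-1+/6R* mice lay above the WT median. WT mice averaged 71.0 ± 6.58 CPM and *Nell-1+/6R* mice 83.7 ± 11.9 CPM (SD, 6 mice per genotype). The log2 fold change was 0.24 ± 0.09 (SE), with a 95% interval of 0.04 to 0.44 (edgeR, unadjusted p = 0.0247, adjusted p = 0.9995). An exact permutation test on the difference of 12.7 CPM gave a two-sided p of 0.0498, where the smallest possible was 0.00216, among 7 such tests without adjustment. The log2 estimate was 0.18 without female *Nell-1+/6R* replicate 2 (edgeR, unadjusted p = 0.0767, adjusted p = 1). It was 0.19 without male *Nell-1+/6R* replicate 3 (edgeR, unadjusted p = 0.0635, adjusted p = 0.999) and 0.20 without male WT replicate 2 (edgeR, unadjusted p = 0.0644, adjusted p = 0.9998). It stayed above 0 with each of the 12 mice left out in turn.

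**Figure D2:**
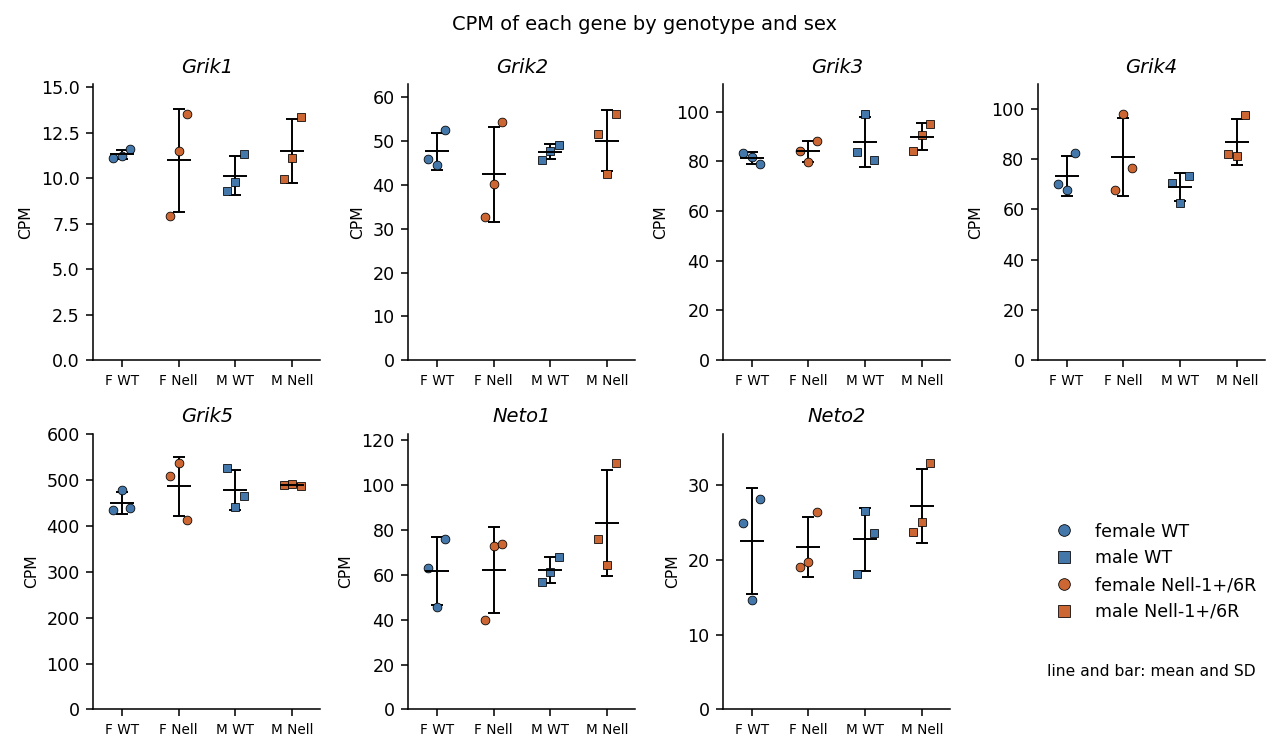
CPM of each gene in the 4 groups of 3 mice, females (F) and males (M) of WT and *Nell-1+/6R* (Nell), 1 point per mouse, with the mean and SD as line and bar. In *Grik4* the 3 male *Nell-1+/6R* mice, at 81.0 to 97.5 CPM, all lie above the 3 male WT mice, at 62.5 to 73.1 CPM, and in every other gene and sex the groups overlap.

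*Grik5* encodes GluK5, the other high-affinity subunit. WT mice ranged from 434 to 526 CPM around a median of 454, and *Nell-1+/6R* mice from 414 to 537 CPM around a median of 491. Both the lowest and the highest of the 12 mice were female *Nell-1+/6R* mice, replicates 3 and 2, whereas the 3 males of that genotype lay within 488 to 493 CPM. The log2 fold change was 0.07 ± 0.07 (95% interval -0.07 to 0.22, edgeR, unadjusted p = 0.289), a range that leaves out a rise above 0.22 on the log2 scale.

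No difference beyond the spread of the mice was detected in the 3 subunits that form channels on their own. *Grik3*, whose product has a low affinity for glutamate, ranged from 78.7 to 99.0 CPM (median 82.6) in WT and from 79.9 to 95.2 CPM (median 86.3) in *Nell-1+/6R* mice. Its log2 fold change was 0.04 ± 0.06 with an interval of -0.08 to 0.17, the narrowest of the set (edgeR, unadjusted p = 0.489). *Grik2* ranged from 44.6 to 52.5 CPM (median 46.9) in WT and from 32.8 to 56.2 CPM (median 47.1) in *Nell-1+/6R* mice. Every WT value of *Grik2* thus lay inside the range of the other genotype, and its log2 fold change was -0.05 ± 0.11 with an interval of -0.28 to 0.19 (unadjusted p = 0.688). *Grik1*, with only 100 to 191 counts per mouse, ranged from 9.28 to 11.6 CPM (median 11.2) in WT and from 7.90 to 13.5 CPM (median 11.3) in *Nell-1+/6R* mice. Its log2 fold change was 0.07 ± 0.13, with an interval of -0.21 to 0.34 (unadjusted p = 0.617).

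*Neto1*, the auxiliary protein found with the receptor at the mossy fibre synapse, varied most. The female WT mice measured 63.0, 45.9 and 76.2 CPM, and the male WT mice 56.7, 61.3 and 68.2 CPM. The female *Nell-1+/6R* mice measured 40.0, 72.9 and 73.9 CPM, and the males 76.0, 64.3 and 109.8 CPM. The lowest and the highest of all mice were thus again *Nell-1+/6R* mice, a female and a male, and the coefficient of variation over the 12 mice was 26.2%, against 7.33% for *Grik3*. The log2 fold change was 0.22 ± 0.18 with an interval of -0.16 to 0.60 (edgeR, unadjusted p = 0.238). Single mice moved it in both directions. Without male *Nell-1+/6R* replicate 3, the mouse with the highest level, the log2 fold change of *Neto1* was 0.09 (edgeR, unadjusted p = 0.597). Without female *Nell-1+/6R* replicate 1, the mouse with the lowest level, it was 0.35 (edgeR, unadjusted p = 0.0287, adjusted p = 0.979), in a fit where 4.85% of all genes had an unadjusted p under 0.05. *Neto2*, which binds the same receptors and is widely expressed in the brain, ranged from 14.6 to 28.1 CPM (median 24.2) in WT and from 19.1 to 32.9 CPM (median 24.4) in *Nell-1+/6R* mice. Its log2 fold change was 0.10 ± 0.16 with an interval of -0.24 to 0.45 (unadjusted p = 0.535). Exact permutation tests of the CPM of the 6 genes other than *Grik4* gave two-sided p-values from 0.299 to 0.749.

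**Figure D3:**
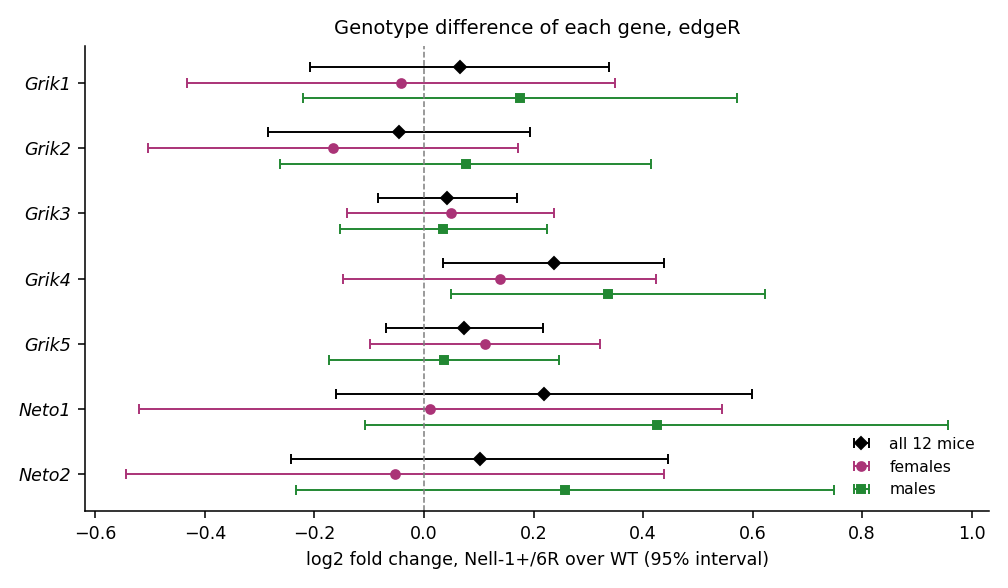
Log2 fold change of each gene, *Nell-1+/6R* over WT, with its 95% interval, over all 12 mice and within each sex (edgeR). The interval lies above 0 for *Grik4* over all mice and in males, and it includes 0 in each of the other cases.

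Within females none of the 7 genes passed an unadjusted p under 0.05 in edgeR, against 2.84% of all genes, and none did in limma-voom or DESeq2. Without female *Nell-1+/6R* replicate 3 the count in edgeR was 2, but 12.8% of all genes then had such a p. The 2 were *Grik2* at -0.39 (unadjusted p = 0.0104, adjusted p = 0.356) and *Grik5* at 0.22 (unadjusted p = 0.0216, adjusted p = 0.356). Within males 1 of 7 passed in each of these tools, *Grik4*, against 3.37% of all genes in edgeR, with a log2 fold change of 0.34 ± 0.13 (unadjusted p = 0.0253, adjusted p = 0.9999). *Grik4* was also the 1 gene of 7 whose male groups did not overlap, which held for 4.76% of all genes in the same direction. The call in males was lost without male *Nell-1+/6R* replicate 3 (log2 fold change 0.24, edgeR, unadjusted p = 0.111) and without male WT replicate 2 (0.27, edgeR, unadjusted p = 0.0953). In females the log2 fold change of *Grik4* was 0.14 ± 0.13. The female effect minus the male effect was -0.20 ± 0.19 (interaction in edgeR, unadjusted p = 0.31), so the effects in the sexes were not shown to differ. With 1 mouse left out it ran from -0.36 without female *Nell-1+/6R* replicate 2 to -0.09 without female *Nell-1+/6R* replicate 1. In *Neto1* this difference was -0.41 ± 0.35, from 0.01 in females and 0.42 in males, with an unadjusted p of 0.256, and it ran from -0.58 without female WT replicate 2 to -0.16 without male *Nell-1+/6R* replicate 3. For the 7 genes the unadjusted p of the interaction ran from 0.256 to 0.913, and 3.09% of all genes had one under 0.05. With 1 mouse left out the interaction had an unadjusted p under 0.05 in 1 gene, *Grik4* without female *Nell-1+/6R* replicate 2 (edgeR, unadjusted p = 0.0468, adjusted p = 1) or *Grik2* without female *Nell-1+/6R* replicate 3 (-0.46, edgeR, unadjusted p = 0.0185, adjusted p = 0.479). Of all genes, 3.42% had such a p in the former fit and 10.3% in the latter. *Neto1* in males stood at 0.59 without male *Nell-1+/6R* replicate 2 (edgeR, unadjusted p = 0.0478, adjusted p = 0.967, against 3.31% of all genes under 0.05) and at 0.18 without male *Nell-1+/6R* replicate 3. By sex alone, 0 of 7 genes had an unadjusted p under 0.05 in edgeR, limma-voom or DESeq2, against 4.72% of all genes in edgeR. The smallest belonged to *Grik3*, higher by 0.10 ± 0.06 on the log2 scale in males (unadjusted p = 0.105). Without male WT replicate 2 this sex effect was 0.06 (edgeR, unadjusted p = 0.295).

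The partners of the receptor were read from a list of 23 genes that scaffold, traffic, modify or edit it, or act beside it at the synapse. In edgeR 1 of 23 had an unadjusted p under 0.05, *C1ql2*, lower in *Nell-1+/6R* mice, and 0 of 23 an adjusted one under 0.05. The background of lower genes at an unadjusted p under 0.05 was 2.2%. The median log2 fold change of the partners was -0.02, and 7 of 23 were above 0. *C1ql2* is secreted by mossy fibres and, with *C1ql3*, recruits kainate receptors across the synapse through neurexin 3. It ranged from 82.1 to 105.7 CPM (median 91.4) in WT and from 52.2 to 102.2 CPM (median 74.6) in *Nell-1+/6R* mice, so the genotypes overlapped. Its log2 fold change was -0.33 ± 0.13 (interval -0.61 to -0.05, unadjusted p = 0.023, adjusted p = 0.9995). The call was lost without female WT replicate 1 (-0.28, edgeR, unadjusted p = 0.059), without female *Nell-1+/6R* replicate 1 (-0.28, edgeR, unadjusted p = 0.0518) and without male *Nell-1+/6R* replicate 2 (-0.23, edgeR, unadjusted p = 0.0527). Beside it, the 6 markers of dentate granule cells, the cells that make it, had a median log2 fold change of -0.20 with 0 of 6 at an unadjusted p under 0.05. Their summed level ranged from 205 to 315 CPM in WT and from 199 to 264 CPM in *Nell-1+/6R* mice, and the lowest of them, *Tdo2*, averaged 5.38 CPM. Their part in the level of *C1ql2* was not tested.

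By sex, 0 of 23 partners had an unadjusted p under 0.05 in females and 1 in males, and 1 had one for the interaction. Of all genes, 2.84%, 3.37% and 3.09% had such a p in these comparisons. With 1 mouse left out the counts ran from 0 to 4 in females, 0 to 1 in males and 0 to 4 for the interaction. The shares of all genes then ran from 1.92% to 12.8%, 2.36% to 4.01% and 2.13% to 10.3%. The partners called in males and for the interaction were picked out after their values were seen. *Grip1*, which encodes a scaffold that binds glutamate receptors, had a log2 fold change of 0.33 ± 0.15 in males (interval 0.01 to 0.65, edgeR, unadjusted p = 0.0446, adjusted p = 0.9999). It ran from 0.21 to 0.42 with 1 mouse left out, and the unadjusted p was 0.05 or more in 7 of those 12 fits. *Adar*, which encodes the RNA-editing enzyme ADAR1, had a female effect minus male effect of -0.25 ± 0.10 (interval -0.48 to -0.02, edgeR, unadjusted p = 0.0341, adjusted p = 0.9866). This difference ran from -0.30 to -0.18 with 1 mouse left out, and the unadjusted p was 0.05 or more in 6 of the 12 fits.

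*C1ql3* measured 81.6 ± 6.9 CPM in the WT and 79.1 ± 11.03 CPM in the *Nell-1+/6R* group, with a log2 fold change of -0.04 ± 0.08 (edgeR, unadjusted p = 0.6). *Adarb1*, whose product ADAR2 edits glutamate receptor RNA, measured 243 ± 22.3 and 238 ± 13.8 CPM, with a log2 fold change of -0.03 ± 0.07 (interval -0.17 to 0.11, unadjusted p = 0.634). *Slc12a5*, which encodes the chloride transporter KCC2, a partner of GluK2 and Neto2, measured 672 ± 28.4 and 667 ± 16.6 CPM, with a log2 fold change of -0.01 ± 0.04 (interval -0.11 to 0.08, unadjusted p = 0.787). The intervals of *Adarb1* and *Slc12a5* leave out a change beyond 0.17 and 0.11 on the log2 scale in either direction.

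Correlations between the genes from mouse to mouse were read after the mean of each genotype and sex had been removed from log2 CPM. By exact permutation of the mice within the 4 groups (1296 permutations, two-sided, smallest possible p = 0.000772), a test chosen after the data had been seen, 0 of 21 pairs passed an adjusted p of 0.05. The lowest adjusted p was 0.124 for r and 0.0616 for rho, and 6 pairs had an unadjusted p under 0.05 by r. The test first planned, with 100000 permutations over all 12 mice, passed 6 pairs, 5 positive and 1 negative. It takes the 12 residuals as freely exchangeable although 4 means had been removed, so its p-values can be too small. For each pair it passed, its p was below the p within groups. These pairs are given here by their r and their p within groups.

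*Neto1* was in 4 of these pairs and *Grik3* in 0. *Neto1* tended to be high where *Grik2* was (r = 0.82, rho = 0.87, exact permutation p = 0.0347, adjusted p = 0.146), where *Grik1* was (r = 0.80, rho = 0.78, exact permutation p = 0.0177, adjusted p = 0.124) and where *Grik4* was (r = 0.77, rho = 0.80, exact permutation p = 0.044, adjusted p = 0.154). With *Neto2* its r was 0.73 and its rho 0.79 (exact permutation p = 0.0154, adjusted p = 0.124). *Grik1* and *Grik2* had an r of 0.80 and a rho of 0.64 (exact permutation p = 0.0895, adjusted p = 0.235). For *Grik5* and *Neto2* r was -0.73 and rho -0.80 (exact permutation p = 0.0123, adjusted p = 0.124). A pair outside these, *Grik2* and *Neto2*, had an r of 0.61 (exact permutation p = 0.0285, adjusted p = 0.146).

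Leaving out the 2 mice farthest from the median of the first gene left r at 0.66 to 0.79 for the pairs of *Neto1* and at -0.79 for *Grik5* and *Neto2*. For *Grik1* and *Grik2* it fell to 0.42, so this relation rests on those mice. With each mouse left out in turn the r of *Neto1* and *Grik2* kept its sign and ran from 0.68 to 0.91.

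The mice also differed in how the counts depended on base composition, which was examined after these correlations had been seen. Whether this arose in the tissue, the RNA or the libraries was not tested. For each mouse the slope of log2 CPM, relative to the mean of the mice, on the GC content of the transcript was fitted over 11797 genes. It ran from -0.20 to 0.24 per 10% GC, with the highest value in female *Nell-1+/6R* replicate 1 and the lowest in male *Nell-1+/6R* replicate 3. The slope averaged -0.01 ± 0.11 in WT and 0.01 ± 0.18 in *Nell-1+/6R* mice (exact permutation test, two-sided, p = 0.851). Of the 7 genes, 3 followed it over the mice at an adjusted p under 0.05 by exact permutation within the groups (Benjamini-Hochberg over 7), and 4 did by rho. Permutation over all 12 mice passed 5. The 7 genes are among those over which the slope was fitted. A GC-rich gene rising with the slope and a GC-poor gene falling with it is thus partly built in. The share of all genes that follow the slope is not given here, so these counts are not read as a result about the 7.

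*Grik5*, at 62.3% GC, rose with the slope (r = 0.87, rho = 0.83, exact permutation p = 0.0123, adjusted p = 0.0288). *Grik2*, at 37.9% GC, fell with it (r = -0.88, rho = -0.87, exact permutation p = 0.00154, adjusted p = 0.0081), as did *Neto2*, at 36.5% GC (r = -0.86, rho = -0.87, exact permutation p = 0.00231, adjusted p = 0.0081). *Neto1*, at 39.6% GC, had an r of -0.74 (exact permutation p = 0.0363, adjusted p = 0.0635) and a rho of -0.83 that did pass (exact permutation, adjusted p = 0.0144). *Grik1*, at 47.9% GC, had an r of -0.69 and a rho of -0.65 (exact permutation p = 0.102, adjusted p = 0.143). For *Grik3* (54.2% GC) r was -0.48, and for *Grik4* (52.2% GC) it was -0.18, neither past the threshold. With the 2 mice farthest from the median of the gene left out, r was 0.81 for *Grik5*, -0.78 for *Grik2*, -0.90 for *Neto2*, -0.63 for *Neto1* and -0.42 for *Grik1*, so that of *Grik1* rests largely on those mice.

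**Figure D4:**
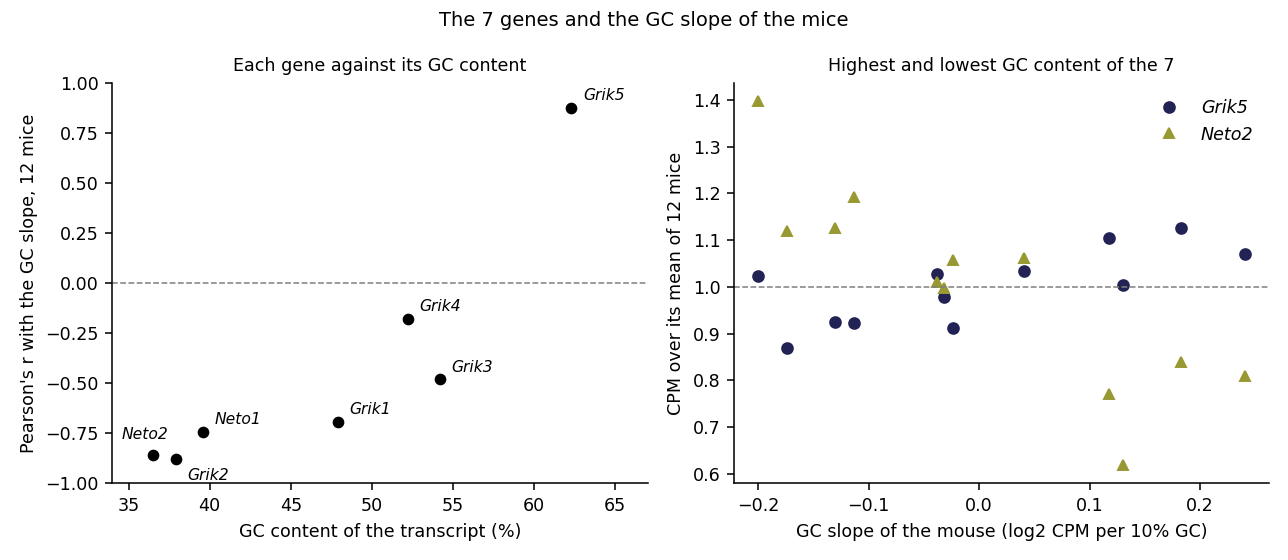
Left, the correlation of each gene with the GC slope of the mice against the GC content of its longest coding transcript. Right, CPM of *Grik5* and *Neto2*, the genes with the highest and the lowest GC content of the set, over their mean of 12 mice, against the GC slope of each mouse, where *Grik5* rises (r = 0.87) and *Neto2* falls (r = -0.86, both with group means removed).

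With the GC slope removed as well, again 0 of 21 pairs passed within the groups (lowest adjusted p 0.13 for r and 0.0648 for rho), and 3 did by permutation over all mice. The highest r was that of *Grik4* and *Neto1*, which went from 0.77 to 0.97 (rho = 0.98, permutation within groups p = 0.00617, adjusted p = 0.13). *Grik4* with *Grik5* stood at 0.84 (permutation within groups p = 0.017, adjusted p = 0.178) and *Grik5* with *Neto1* at 0.81 (permutation within groups p = 0.0278, adjusted p = 0.194), against 0.25 and -0.39 before. The correlation of *Grik5* and *Neto2* went from -0.73 to 0.09, and that of *Neto1* and *Neto2* from 0.73 to 0.27. With the slope as a covariate in edgeR, *Grik4* had a log2 fold change of 0.24 ± 0.09 (unadjusted p = 0.0136, adjusted p = 0.834). The estimate of *Neto1* was 0.24 with an SE of 0.11 in place of 0.18 (interval -0.01 to 0.48, unadjusted p = 0.0544, adjusted p = 0.883), and that of *Neto2* was 0.14 ± 0.09 (unadjusted p = 0.125). The number of members at an unadjusted p under 0.05 was 1, as without the slope, while the share of all genes rose from 3.26% to 5.67%.

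**Figure D5:**
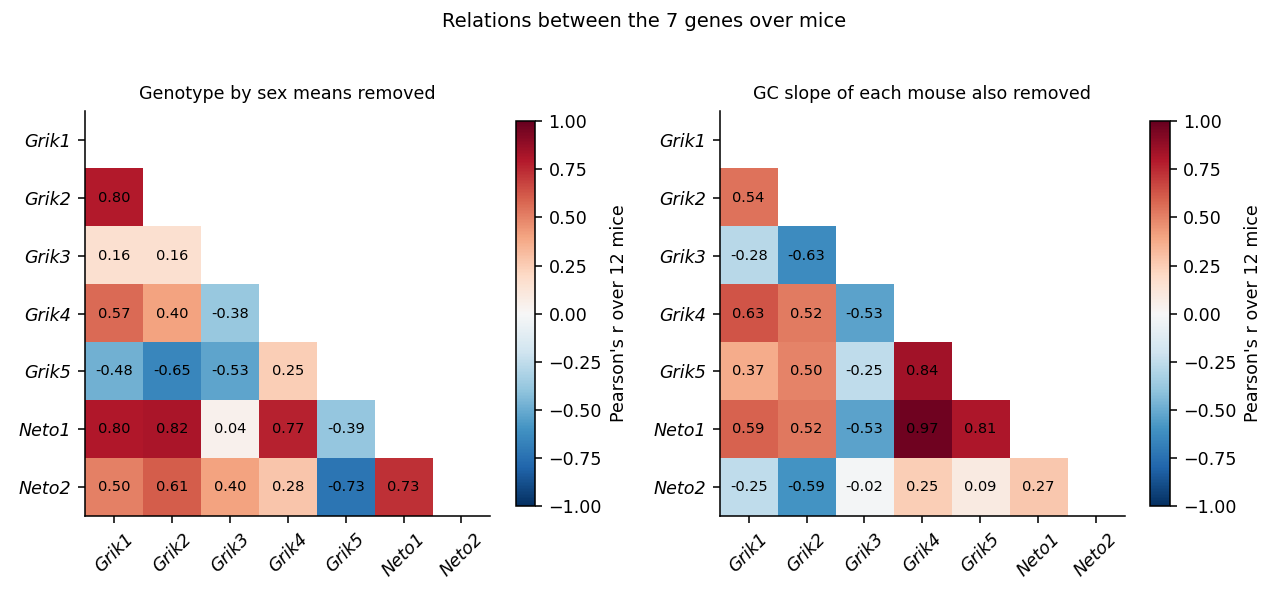
Pearson's r of log2 CPM for the 21 pairs of genes over 12 mice, with the means of genotype and sex removed (left) and with the GC slope of each mouse also removed (right). *Grik5* with *Neto2* stands at -0.73 on the left and 0.09 on the right, *Grik4* with *Neto1* at 0.77 and 0.97, and no pair passed an adjusted p of 0.05 by permutation within the groups.

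The genes whose log2 CPM followed each member most closely over the 12 mice were taken from 12129 genes with a mean count of at least 50 and are given as a description. *Grik5* was nearest to *Scaf1* (r = 0.97), *Strn4* (0.97) and *Pik3r2* (0.96), whose transcripts hold 63.0%, 58.6% and 61.4% GC. *Grik2* was nearest to *Ipo5* (0.96), *Gabra4* (0.96), a GABA-A receptor subunit, and *Sgip1* (0.96), with 46.0%, 42.2% and 43.6% GC.

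*Neto1* was nearest to *St6galnac5* (0.96), *Kcnc2* (0.96), a voltage-gated potassium channel of fast-spiking interneurons, and *Kit* (0.95), a receptor tyrosine kinase, with 46.4%, 45.7% and 48.5% GC. *Grik4* was nearest to *Chst11* (0.94), *Disp2* (0.94) and *Hpcal4* (0.93), *Grik1* to *Vps41* (0.96), *Ppp3cc* (0.90) and *Cyb5b* (0.89). *Neto2* was nearest to *Snhg14* (0.96), *Gda* (0.95) and *Osbpl8* (0.95). *Grik3* had the loosest neighbours, *Flt1* (0.90) and *Egfr* (0.86), both growth factor receptors, and *A830082K12Rik* (0.85).

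The 7 genes were also compared with 4 scores, for dentate granule cells, CA3 pyramidal cells, CA1 pyramidal cells and GABAergic neurons, each the mean of centred log2 CPM over a marker list. None of the 28 relations passed an adjusted p of 0.05 by exact permutation within the groups, where the lowest adjusted p was 0.76 and 0 had an unadjusted p under 0.05. None passed by permutation over all 12 mice either. With the GC slope removed, *Grik5* against the CA3 score had an r of -0.84 and a rho of -0.84 (permutation within groups p = 0.0247, adjusted p = 0.691). Between the genotypes, 0 of 6 dentate markers and 1 of 5 CA3 markers (*Coch*, lower in *Nell-1+/6R* mice) had an unadjusted p under 0.05 in edgeR. So did 1 of 6 CA1 markers (*Fibcd1*, higher) and 2 of 11 GABAergic markers (*Sst* and *Pvalb*, both higher). None of these markers had an adjusted p under 0.05. Of all genes, 3.26% had such an unadjusted p, 1.06% higher and 2.2% lower.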

How the data were processed

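The authors sequenced hippocampal RNA of 12 mice, aligned the reads to mm10 and deposited raw read counts per Entrez gene, neither normalized nor pooled. The submitters' processing notes name HISAT2 2.1.0 and featureCounts 2.0.1. No strand setting was found in the labels or methods. Genes with at least 0.2 CPM in at least 2 mice were tested with edgeR 4.0.16 (R 4.3.3, quasi-likelihood, TMM factors, sex and genotype, Benjamini-Hochberg over all genes), limma-voom (limma 3.58.1) and DESeq2 1.42.0, all tested on simulated data. Effects within each sex came from a model of 4 groups. CPM per mouse were compared by exact permutation over 924 splits, and relations over mice of log2 CPM (prior count 2) by 100000 permutations over all mice and, added after seeing the data, exactly within genotype and sex, in Python 3.11.15 with scipy 1.17.1. Lengths and GC are from GENCODE M21. The counts per mouse ran from 100 to 191 for *Grik1* to 5213 to 7242 for *Grik5*. The members and lists were chosen with earlier results of these data known. The genes named are the 7 members, the 3 nearest to each, partners with an unadjusted p under 0.05 between the genotypes, *C1ql2*, *C1ql3*, *Adarb1*, *Slc12a5*, *Nell1*, *Xist* and *Eif2s3y*. Marker genes, *Grip1* and *Adar* were named after their values were seen. The alternatives were other normalization, tests, filters, lengths, residuals, a replicate block, each mouse left out and, added after seeing the data, the GC slope.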

Additional observations from a re-analysis of the deposited data

Results flagged for a closer look

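*Grik3* measured 99.0 CPM in male WT replicate 2, a value that stood apart from the other 5 WT mice, whose levels ran from 78.7 to 83.6 CPM. It was the 1 mouse standing apart in this way among 30 groups of 6 mice examined. How often chance marks such a group is not given here. The effect of *Grik3* in males was 0.04 on the log2 scale with this mouse and 0.13 without it (edgeR, unadjusted p = 0.146, adjusted p = 0.993).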

How the results depend on the processing

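No member passed an adjusted p of 0.05 under any alternative run, and with all 12 mice *Grik4* kept its direction and an unadjusted p under 0.05 in each of 10 alternatives (log2 fold change 0.23 to 0.24). Between the genotypes, the number of members at an unadjusted p under 0.05 ran from 0 to 2 with 1 mouse left out. That of partners ran from 0 to 1, while 2.14% to 5.12% of all genes had such a p. *C1ql2* kept its direction in each of these fits (-0.45 to -0.23). The log2 fold change of *Grik1* ran from -0.0018 to 0.16 with 1 mouse left out, of *Grik2* from -0.126 to 0.0366, of *Grik3* from 0.0212 to 0.0853, of *Grik5* from 0.0356 to 0.116, of *Neto1* from 0.0852 to 0.346, of *Neto2* from 0.0125 to 0.202, of *Adarb1* from -0.0712 to 0.0091, of *C1ql3* from -0.0939 to 0.0137 and of *Slc12a5* from -0.0243 to 0.008. The CPM difference of *Grik2* ran from -3.31 to 1.37. The exact test of *Grik4* gave p-values from 0.013 to 0.102, with differences of 9.9 to 15.9 CPM.

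With 1 mouse left out, the effects in females ran from -0.22 to 0.15 for *Grik1*, -0.386 to -0.0117 for *Grik2*, 0.0352 to 0.215 for *Grik5*, -0.0232 to 0.249 for *Grik4*, -0.16 to 0.25 for *Neto1* and -0.28 to 0.13 for *Neto2*. In males they ran from -0.0131 to 0.194 for *Grik2*, -0.019 to 0.131 for *Grik3* and -0.0188 to 0.1003 for *Grik5*. The effect on *Neto1* in females was -0.0152 in limma-voom and -0.001 without a filter. The female effect minus the male effect ran from -0.0823 to 0.0724 for *Grik3*, where it was -0.0018 without a filter, from -0.0007 to 0.18 for *Grik5*, from -0.398 to -0.0277 for *Grik1*, from -0.359 to -0.0866 for *Grik4*, from -0.46 to -0.0872 for *Grik2* and from -0.539 to -0.123 for *Neto2*. The sex effect ran from -0.144 to 0.0196 for *Grik1* and from -0.0538 to 0.0667 for *Grik4*. The cause of these shifts was not tested.

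The number of correlated pairs was 6 by permutation over all 12 mice, 0 within genotype and sex, and 0 within them with the GC slope removed. By permutation over all mice it ran from 0 to 9 with 1 mouse left out and was 3 with the GC slope removed. The r of *Grik5* and *Neto2* was 0.0867 with the GC slope removed. Without that removal it ran from -0.78 to -0.67 with 1 mouse left out. Relations to the scores numbered 0 to 1 with 1 mouse left out and 1 with the GC slope removed in the same test. Shares and ratios moved where length was left out or replaced by coding length, and with counts alone *Grik5* made up 68.2%, *Grik3* 12.3% and *Grik2* 6.76%, with a ratio of *Neto1* to *Neto2* of 2.86.

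The correlations of the deviations of mice with the same replicate number ran from -0.204 to 0.352. Those of mice with different numbers ran from -0.365 to 0.36. Whether mice with the same number share more than the number was not tested. With the replicate number as a block, *Grik4* had a log2 fold change of 0.24 (edgeR, unadjusted p = 0.0211) and 1 member passed, as without it. *Grik1* has the fewest counts of the 7 genes, 100 to 191 per mouse.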
